A study of Mus musculus with 16 samples.

Results

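Replication-dependent core histone genes were followed at the level of mRNA and of ribosome footprints in Hepa1-6 cells, a mouse hepatoma line. The genes were those whose symbol begins with Hist1h, Hist2h, Hist3h or Hist4h followed by 2a, 2b, 3 or 4, which gave 61 genes of the 22392 gene symbols in the table. They comprised 18 H2A, 18 H2B, 12 H3 and 13 H4 genes, and the choice used symbols and no measured value. Each gene was represented by its transcript with the largest count over all libraries, and 5 of the 61 genes had more than 1 transcript. The lines compared were WT and 3 clones. WT cells carry intact Eef1d, and KO1, KO2 and KO3 are single-cell clones, each with exon 5 of Eef1d removed by a pair of Cas9 guide RNAs. KO1 and KO2 were made with the same pair of guides, and KO3 with a pair that had 1 of these guides and 1 other. All lines were grown in the same medium without treatment. Each line had 2 replicates, and each replicate gave an RNA-seq and a Ribo-seq library from a shared lysate, which makes 16 libraries. A clone is 1 derivation of the line, so an effect of exon 5 and a property of a clone cannot be told apart within it.

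Core histones H2A, H2B, H3 and H4 form the octamer around which DNA is wrapped. Their replication-dependent genes lie in clusters, have no introns in their coding sequence and are expressed mainly in S phase, when new chromatin is assembled. Their mRNAs are not polyadenylated. They end instead in a conserved stem-loop, which is bound by the stem-loop binding protein SLBP and takes the part of the poly(A) tail in translation and in decay at the end of S phase. Selection of poly(A) RNA would therefore be expected to lose these mRNAs, whereas removal of rRNA keeps them.

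Over the transcript chosen for each gene, RNA-seq libraries held 10493029 to 12946815 counts and Ribo-seq libraries 1138944 to 4886757, with the smallest library in KO1 footprints. The count of the Eef1d transcript with exon 5 was 116% to 116.2% of that of the transcript without it in WT RNA-seq and 89.8% to 92.6% in the clones. Isoforms with and without exon 5 share coding sequence, and reads there can fit both, so this ratio does not give the level of exon 5 itself. By this ratio no library went against its label as WT or clone, but it cannot tell the clones or the replicates from each other. Of 10 hepatocyte markers, 6 had a median of at least 10 TPM (a level per coding length, scaled to the same total in every library), and Apoa1, Ttr and Serpina1a were near 0. Of 16 leukocyte, endothelial and fibroblast markers, Dcn alone passed that level.

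The stem-loop was found for 58 of the 61 genes within 150 bases after the stop codon of the GRCm38 reference, and 57 of these matched exactly. The motif searched on the coding strand was the stem GGCTCT or GGCCCT, any 4 bases, and the stem in reverse complement, with up to 1 difference. The second stem was added after H4 genes were seen to hold no match to the first. The distance from the stop codon was 22 to 59 bases, with a median of 31.5. Of 21338 other genes searched in the same way, 11 held an exact match (0.0516%), among them the 5 linker histone genes Hist1h1a to Hist1h1e. H2afx, 1 of the variant histone genes compared below, was also among them. Sites of 6 genes on which later results turn follow, with the stem-loop in capitals.
Hist2h2bb: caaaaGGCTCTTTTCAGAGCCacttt
Hist2h2ab: aaaaaGGCTCTTTTAAGAGCCaccaa
Hist2h3c1: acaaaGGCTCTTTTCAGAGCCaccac
Hist3h2a: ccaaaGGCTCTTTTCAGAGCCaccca
Hist1h4a: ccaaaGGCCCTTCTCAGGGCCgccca
Hist4h4: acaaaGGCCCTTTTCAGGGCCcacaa
Counted after the stop codon, and thus outside the coding sequence, these sites lie at chr3:96270166-96270191, chr3:96220328-96220353 and chr3:96247322-96247347 for the Hist2 genes, chr11:58955167-58955192 for Hist3h2a (all plus strand), and chr13:23760795-23760820 and chr6:136803993-136804018 for the H4 genes (minus strand). The H4 stem was GGCCCT in 11 of 11 H4 genes with a site, and the stem of the H2A, H2B and H3 genes was GGCTCT, with 1 H2A site that differed by 1 base in the far arm. No match was found for Hist2h2be, Hist1h4b and Hist1h4j, which says only that these letters are not in the window searched.

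The genes occupy 4 loci: the Hist1 cluster on chromosome 13 with 48 genes (21715763 to 23934851), the Hist2 cluster on chromosome 3 with 10 (96219865 to 96270132), 2 Hist3 genes on chromosome 11, and Hist4h4 on chromosome 6. All 61 have a single coding exon. Their coding sequences are so alike that a footprint often fits several of them. The same 30 coding bases, numbers 181 to 210 from the start codon, are given for 4 H2B genes, with capitals at bases that differ from Hist1h2br, the H2B gene with the most RNA-seq counts.
Hist1h2br: ggcatcatgaactcgttcgtgaacgacatc
Hist1h2bm: ggcatcatgaactcgttcgtgaacgacatc
Hist2h2be: ggcatcatgaactcgttTgtCaaTgacatc
Hist2h2bb: ggAatcatgaaTtcCttcgtgaacgaTatc
The Hist1h2br sequence (chr13:21833951-21833980) occurred at 13 places in the genome, and that of Hist1h2bm (chr13:21722278-21722307) is the same. The windows of Hist2h2be (chr3:96221346-96221375) and Hist2h2bb (chr3:96269932-96269961) occurred once. Over windows placed on each counted codon, the median gene had 12.8% of its 30-base windows, the length of a footprint, found once in the genome, and 49.6% of its 100-base windows. For 13 genes no 30-base window was unique. In the 4 pairs of genes with identical coding sequence, the 2 footprint counts of a library differed by at most 0.497%. The RNA-seq counts of such pairs differed by up to 9.33%. Counts this close in genes with no sequence of their own would arise if a read that fits several genes was counted on each. The study's description of its processing lists uniquely mapped reads instead, which would leave few footprints on a gene without a unique window. Hist1h2ad, which has no unique 30-base window, held 3658 and 2369 footprint counts in WT. Hist1h2af, another H2A gene, held 3660 and 2373. The counting step itself was not tested. Sums over the genes may therefore count some reads repeatedly, and genes alike in sequence are not independent.

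Core histone mRNAs were among the most abundant in the RNA-seq libraries. By TPM in WT cells, 27 of the 61 genes were among the 100 highest genes and 53 among the 500 highest, and Hist2h3c2 and Hist1h3b, both H3 genes, ranked 10 and 11 of 22366 genes. Hist1h3b stood at 4251 and 4179 TPM in the 2 WT RNA-seq libraries and at 9215 and 8485 TPM in footprints. Hist1h2aa, a gene at 0 to 2.17 TPM in every RNA-seq library, was the 1 gene too low to be tested. The genes together took 4.11% and 3.95% of all RNA-seq counts in WT cells. Their share was 4.14% and 3.93% in the KO1 libraries, 3.91% and 4.50% in the KO2 libraries, and 4.71% and 4.98% in the KO3 libraries. Both KO3 libraries were above all others, and the KO2 replicates lay on either side of WT. For comparison, the 5 linker H1 genes took 0.213% to 0.311%, and 11 replication-independent variant genes, most of whose mRNAs carry poly(A) tails, took 0.188% to 0.253%. The labels call the RNA-seq material polyA RNA, while the protocol names a kit that depletes rRNA. Counts on these genes were present in every RNA-seq library. Whether the molecules counted lacked a poly(A) tail was not measured, and no library analysed here sets a scale for their loss under the other kind of selection.

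In footprints the same genes took 10.7% and 9.87% of counts in WT cells. The KO1 libraries had 10.6% and 10.5%, the KO2 libraries 10.2% and 11.3%, and the KO3 libraries 11.7% and 12.7%. The KO3 libraries were again the highest. H3 genes held the largest part, 4.23% to 5.79% of footprint counts, followed by H4 with 2.85% to 3.65%, H2B with 1.48% to 1.76% and H2A with 1.24% to 1.46%. In RNA-seq H3 genes held 1.30% to 1.87%, and H4 genes 0.846% to 1.09%, close to H2B with 0.902% to 1.06% and H2A with 0.763% to 0.958%. As a rough allowance for any repeated counting, each gene's count was multiplied by the mean of 1 over the number of genomic places of its windows. With 30-base windows for footprints the median share over the 8 libraries was 3.15% in place of 10.7%. For RNA-seq it was 2.18% with 100-base windows (2.06% to 2.64%) and 1.11% with 30-base windows (1.05% to 1.36%) in place of 4.13%. These weighted shares assume reads spread evenly along a gene, which counting a read at each of its places would break. The total of each library was left unweighted. The weighted shares are therefore neither bounds nor true shares.

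**Figure D1:**
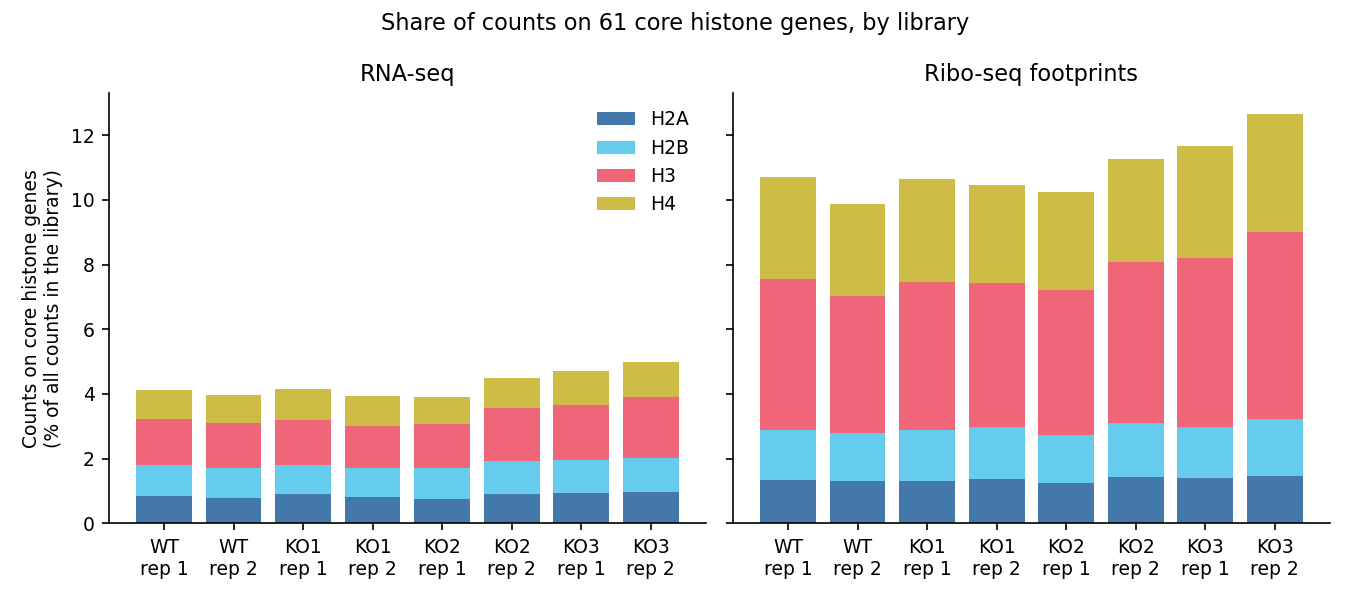
Stacked bars give the percentage of all counts in a library that fell on core histone genes, split into H2A, H2B, H3 and H4, for the 8 RNA-seq libraries (left) and the 8 Ribo-seq libraries (right). Footprint shares run from 9.87% to 12.7% against 3.91% to 4.98% for RNA-seq, and both KO3 libraries are the highest in each assay.

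The next comparison asked how many footprints these mRNAs carried for their RNA. In WT cells the footprint-to-RNA ratio, relative to the typical gene, was higher for 58 of the 60 genes tested and lower for none (edgeR quasi-likelihood test, adjusted p under 0.05). Of all genes tested, 31.6% were called higher and 33.2% lower. The median log2 ratio of the core histone genes was 1.48, against -0.02 for all genes, of which 3.98% stood above that median. H3 and H4 genes had medians of 1.80 and 1.79, and H2A and H2B genes 1.01 and 1.12. Other short genes also had higher ratios than the typical gene. The 985 other genes with counted lengths within the range of the core histones, 94 to 172 codons, had a median of 0.41, and 51.1% of them were called higher. The part of length in the ratio was not tested. Against those genes the excess of the core histones was 1.07, which is lower than that over all genes. The 5 linker H1 genes were all called higher, from 1.59 to 2.85, and of 10 variant genes 6 were called higher and 1 lower, with a median of 0.40. In the clones 57 or 58 of 60 core histone genes were called higher, with medians of 1.38 to 1.55. These ratios use the counts as deposited. The median gene had 12.8% of 30-base and 49.6% of 100-base windows unique, so any repeated counting would add more to footprints than to longer reads. With the weights above, the median share was 3.15% in footprints. In RNA-seq it was 2.18% with 100-base and 1.11% with 30-base windows. How much repeated counting enters the ratio was not tested.

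The highest ratios belonged to 3 genes with very little RNA. Hist2h2be, an H2B gene, had 39 and 45 counts in the WT RNA-seq libraries and 929 and 567 in the Ribo-seq libraries. Its log2 ratio was 6.23 ± 0.11 (SE, derived from the test statistic), and this SE may understate the error at so few counts. Hist2h2ab, an H2A gene, had 154 and 133 counts in RNA-seq and 1978 and 1191 in Ribo-seq, a log2 ratio of 5.54 ± 0.09. Hist1h2bm, another H2B gene, had 235 and 201 counts in RNA-seq and 2748 and 1754 in Ribo-seq, a log2 ratio of 5.45 ± 0.08. The groups of 2 lie far apart for each, and in 30-base windows 79.5%, 66.1% and 29.9% of these genes were unique, against 100%, 98.3% and 92.3% in 100-base windows. A footprint in a shared window can come from another H2A or H2B gene, and how many did was not tested. The lowest ratios were those of Hist1h2bg (-0.09 ± 0.05, adjusted p = 0.135), Hist1h2bk (-0.01 ± 0.05, adjusted p = 0.849) and Hist1h2br (0.13 ± 0.05, adjusted p = 0.0247), H2B genes with many RNA-seq counts. Hist1h2bk, for example, had 11592 and 11962 counts in RNA-seq and 3354 and 2158 in Ribo-seq.

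**Figure D2:**
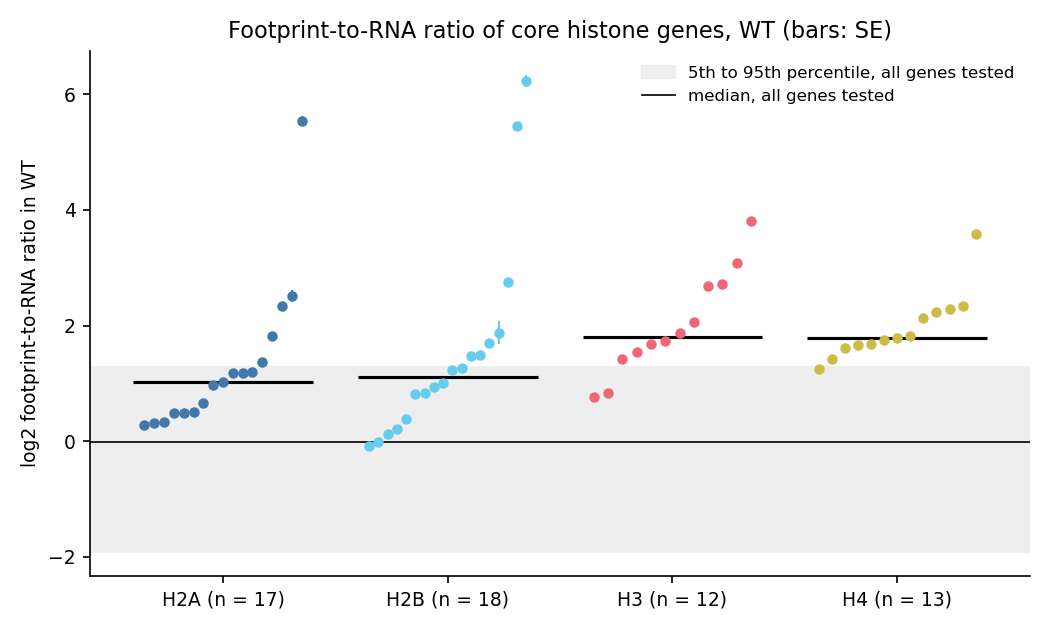
Each point is a core histone gene, placed by its log2 footprint-to-RNA ratio in WT cells with its SE, and thick lines are class medians. The grey band spans the 5th to 95th percentile of all genes tested, and the H3 and H4 medians (1.80 and 1.79) lie above it, while the H2A and H2B medians (1.01 and 1.12) lie within it.

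The ratio was also read in genes with more sequence of their own. Among the 7 tested genes with over 50% of their 30-base windows unique, all 7 were called higher, with log2 ratios of 0.48 to 6.23 and a median of 1.66. The upper end was set by Hist2h2be, Hist2h2ab and Hist1h2ba, whose remaining windows were shared, and how many of the footprints came from shared windows was not tested. Hist4h4, with 98.9% of windows unique, had a log2 ratio of 1.42 ± 0.06, and Hist2h2bb, with 91.5%, had 0.94 ± 0.05. Hist2h4, with 86.2%, had 1.66 ± 0.06 and Hist3h2a, with 81.0%, had 0.48 ± 0.07. The 13 genes without a unique window were also all called higher, with a median of 0.84. Across the 60 genes the ratio rose with the unique share (Spearman's rho = 0.486 for 30-base windows), a description over genes that share reads and libraries.

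**Figure D3:**
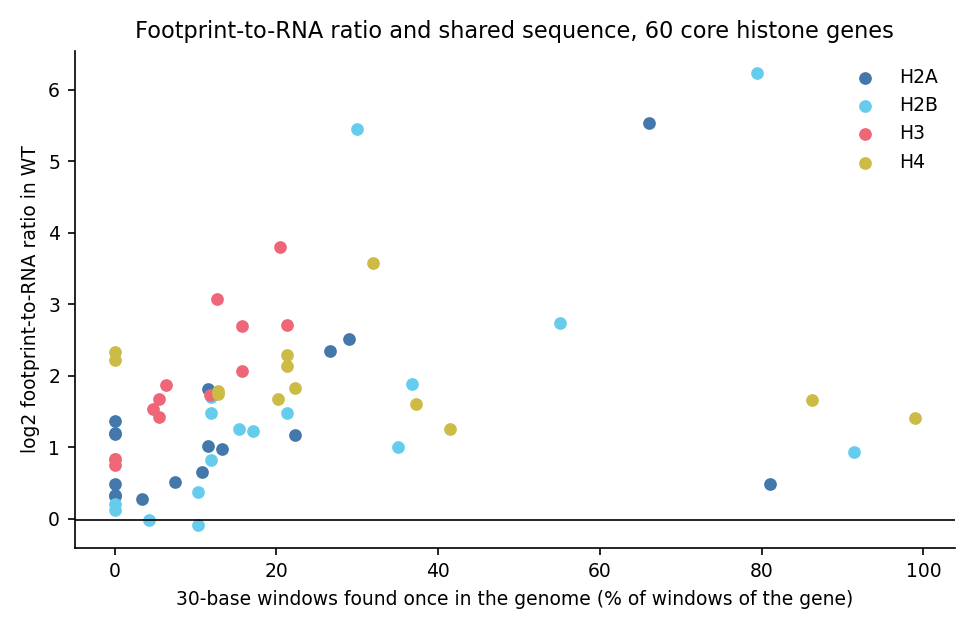
Points are the 60 tested core histone genes, with the percentage of 30-base windows found once in the genome on the horizontal axis and the log2 footprint-to-RNA ratio in WT cells on the vertical axis, coloured by class. Genes with over 50% of windows unique lie between 0.48 and 6.23, all above the median of all genes (horizontal line).

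KO3 had higher levels of nearly all core histone genes. In RNA-seq 52 of 60 genes rose and none fell, where 23.1% of all genes tested rose and 22.3% fell. In footprints 42 of 60 rose and none fell, against 14.9% and 15.7% of all genes. All 12 H3 and all 13 H4 genes rose in both readouts, with median log2 changes in RNA of 0.37 and 0.34. In RNA 15 of 17 H2A and 12 of 18 H2B genes rose, with medians of 0.28 and 0.19, and in footprints 7 and 10 did. The median change over all 60 genes was 0.31 in RNA and 0.23 in footprints, while that of all genes tested was 0.001 and 0.004. Many of these genes share reads. Among the 7 tested genes with over 50% of their 30-base windows unique, 4 rose in RNA and 5 in footprints, and none fell. Their changes had medians of 0.34 and 0.30, with lowest values of -0.22 and 0.12. Leaving out each library of KO3 and WT in turn gave 44 to 52 genes called in RNA and 28 to 47 in footprints.

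Individual genes showed the size of this change. Hist1h3b, at 1733 and 1695 CPM (counts scaled to library size and TMM factor) in WT RNA-seq, stood at 2132 and 2292 in KO3, a log2 change of 0.37 ± 0.04 (adjusted p = 6.97e-13). In footprints it stood at 4698 and 4155 CPM in WT and at 5292 and 5857 in KO3, a change of 0.32 ± 0.07 (adjusted p = 0.000147). The KO3 values lay above the WT values in both. Hist3h2a, an H2A gene on chromosome 11, rose further, from 108.7 and 106.7 CPM in WT RNA-seq to 170.8 and 165.7 in KO3 (0.64 ± 0.07, adjusted p = 2.92e-14). In footprints it went from 138 and 129.1 to 195 and 199.4 CPM (0.54 ± 0.08, adjusted p = 4.12e-07), without overlap. Its neighbour Hist3h2ba, an H2B gene, rose in RNA by 0.76 ± 0.16 (adjusted p = 5.83e-05) at a low level of 8.83 to 16.7 CPM in WT and KO3. In footprints its change was 0.02 ± 0.16 (adjusted p = 0.956). Hist4h4, nearly all of whose windows are unique, rose from 145.7 and 137.8 to 166.8 and 194.9 CPM in RNA-seq (0.35 ± 0.06, adjusted p = 4.23e-06). The abundant genes Hist1h2ah, Hist1h2bq, Hist1h4h and Hist1h4i rose in RNA by 0.30, 0.20, 0.25 and 0.21 (SE 0.04 each), and the H4 genes among them also rose in footprints (0.26 and 0.23). Hist1h2bk was not called in RNA (0.09 ± 0.04, adjusted p = 0.0754) and rose in footprints by 0.16 ± 0.06 (adjusted p = 0.0451).

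KO1 differed from WT at few of these genes, and most of those that fell lay in the Hist2 cluster. In RNA-seq 9 of 60 genes rose and 6 fell, below the 22.1% and 24.6% of all genes called in each direction. Of the 6 that fell, 5 lay in the Hist2 cluster, and the other was Hist1h2br (-0.09 ± 0.04, adjusted p = 0.047). Hist2h2bb, an H2B gene whose windows are 91.5% unique, fell from 684.5 and 653.6 CPM in WT to 451.3 and 462.2 in KO1 (-0.55 ± 0.05, adjusted p = 2.80e-15). Its footprints fell from 1112 and 1175 to 831.4 and 833.6 CPM (-0.47 ± 0.06, adjusted p = 1.03e-07). The KO1 values lay below the WT values in both assays. The 3 Hist2 H3 genes, which share most of their reads, fell together, as shown by Hist2h3c1, with 1920 and 1892 CPM in WT and 1653 and 1619 in KO1 (-0.22 ± 0.04, adjusted p = 1.77e-06). Hist2h2ab fell in RNA by 0.50 on the log2 scale (SE 0.18, adjusted p = 0.0191), from 14.0 and 11.3 to 9.36 and 8.54 CPM.

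Genes also rose in KO1. Within the Hist2 cluster itself, Hist2h2ac, an H2A gene named after its values were seen, rose by 0.19 ± 0.05 in RNA (adjusted p = 0.00309), from 235.7 and 220.6 to 260.3 and 260.2 CPM. Hist3h2ba rose by 0.56 ± 0.17 in RNA (adjusted p = 0.00632), from 8.83 and 10.8 to 12.9 and 16.2 CPM. Hist3h2a rose by 0.22 ± 0.07 (adjusted p = 0.0056), and Hist1h4a by 0.19 ± 0.04 (adjusted p = 0.000323). In footprints 3 genes rose and 4 fell, against 11.7% and 15.2% of all genes. All 4 that fell were Hist2 genes, namely Hist2h2bb and the 3 H3 genes, and the 3 that rose were the H2B genes Hist1h2bb (0.26 ± 0.07, adjusted p = 0.00226), Hist1h2bn (0.21 ± 0.07, adjusted p = 0.0128) and Hist1h2bf (0.21 ± 0.07, adjusted p = 0.0138). The count of calls in RNA depended on single libraries. It was 26 without KO1 replicate 2, of which 20 were Hist1 genes that rose, and 6 without WT replicate 2, while 4 or 5 Hist2 genes fell whichever library was left out. In footprints it was 3 without WT replicate 1 and 4 without KO1 replicate 2, where 1 and 2 Hist2 genes fell, and 1 Hist2 gene rose in the second case.

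In KO2 few core histone genes were called, and those called were Hist2 genes that rose. In RNA-seq 8 of 60 genes rose and none fell, where 11.6% of all genes rose and 8.84% fell, and in footprints 6 rose and none fell, against 6.74% and 4.99%. The numbers that rose are not far from the shares of all genes. All 8 and all 6 were Hist2 genes, and none of the 47 Hist1 genes was called in either readout. The Hist2 H3 genes share reads, as do 2 identical H2A genes, so these calls are not separate observations. Hist2h2bb rose to 803.4 and 823.2 CPM in RNA-seq (0.28 ± 0.05, adjusted p = 0.000136) and to 1307 and 1459 CPM in footprints (0.27 ± 0.06, adjusted p = 0.0041), above both WT values in each assay. Hist2h3c2 rose by 0.29 ± 0.05 in RNA (adjusted p = 0.000432) and by 0.32 ± 0.07 in footprints (adjusted p = 0.00108), and Hist2h3b by 0.32 ± 0.07 in footprints (adjusted p = 0.00113). Hist2h2ab rose in RNA by 0.48 ± 0.15 (adjusted p = 0.0262), to 17.1 and 18.1 CPM. The 2 identical H2A genes Hist2h2aa1 and Hist2h2aa2 both rose by 0.20 ± 0.05 in RNA (adjusted p = 0.00725 and 0.00727).

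The KO2 replicates stood apart from each other over all core histone genes, at 3.91% and 4.50% of RNA-seq counts, and the calls moved with them. Without KO2 replicate 1, 33 genes rose in RNA, of which 24 were Hist1 and 9 Hist2 genes. Without KO2 replicate 2, 3 Hist2 genes rose while 13 Hist1 genes and 1 Hist3 gene fell. Without WT replicate 2, 4 Hist2 genes rose. In footprints the count was 10 without KO2 replicate 1 (7 Hist2 and 3 Hist1 genes) and 1 without WT replicate 2, a Hist2 gene. Without KO2 replicate 2, 3 Hist2 genes rose and 2 Hist1 genes fell. In each of these settings the genes of the Hist2 cluster that were called rose.

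**Figure D4:**
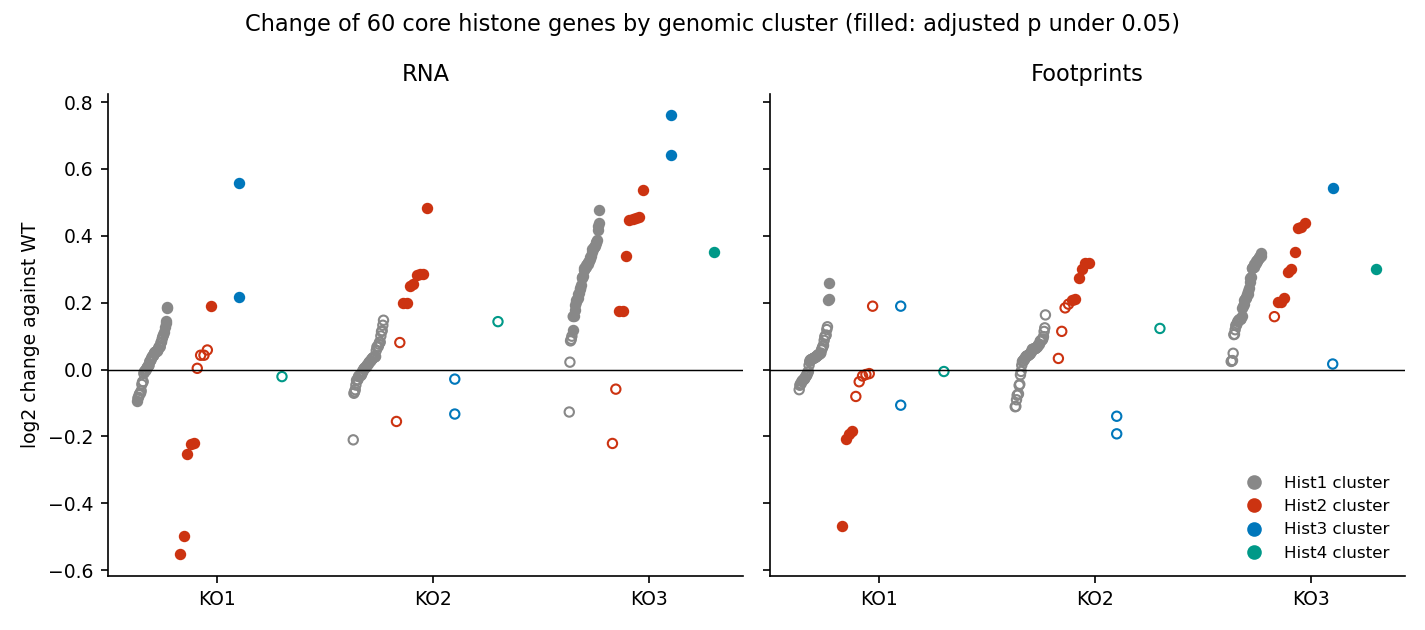
Points are the 60 tested core histone genes, with the log2 change against WT on the vertical axis, grouped by clone and coloured by genomic cluster, for RNA (left) and footprints (right), and filled where the adjusted p was under 0.05. The Hist2 genes reach -0.55 in KO1 and 0.48 in KO2 in RNA while the medians of the Hist1 genes are 0.04 and 0.02 there, and in KO3 nearly all points are above 0.

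Other genes near the Hist2 cluster were compared, a choice made after these values were seen. Of 26 other genes tested within 500000 bases of the cluster, 7 rose and 6 fell in KO1 RNA, with a median of 0.10. In KO2 1 of 25 rose and 2 fell, with a median of -0.0037, and in KO3 4 rose and 2 fell, with a median of 0.06. The medians of all other tested genes of chromosome 3 were 0.09, 0.004 and -0.05. For the 10 Hist2 genes the medians in KO1 and KO2 were -0.11 and 0.25. In KO1 these genes went both ways, with 5 above 0 and 5 below, 3 of the latter being H3 genes that share reads. For the Hist3 genes on chromosome 11, whose median in KO3 RNA was 0.70, none of 12 neighbours rose and 1 fell. Of all other tested genes of chromosome 11, 13.1% rose and 28.2% fell there, with a median of -0.08.

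**Figure D5:**
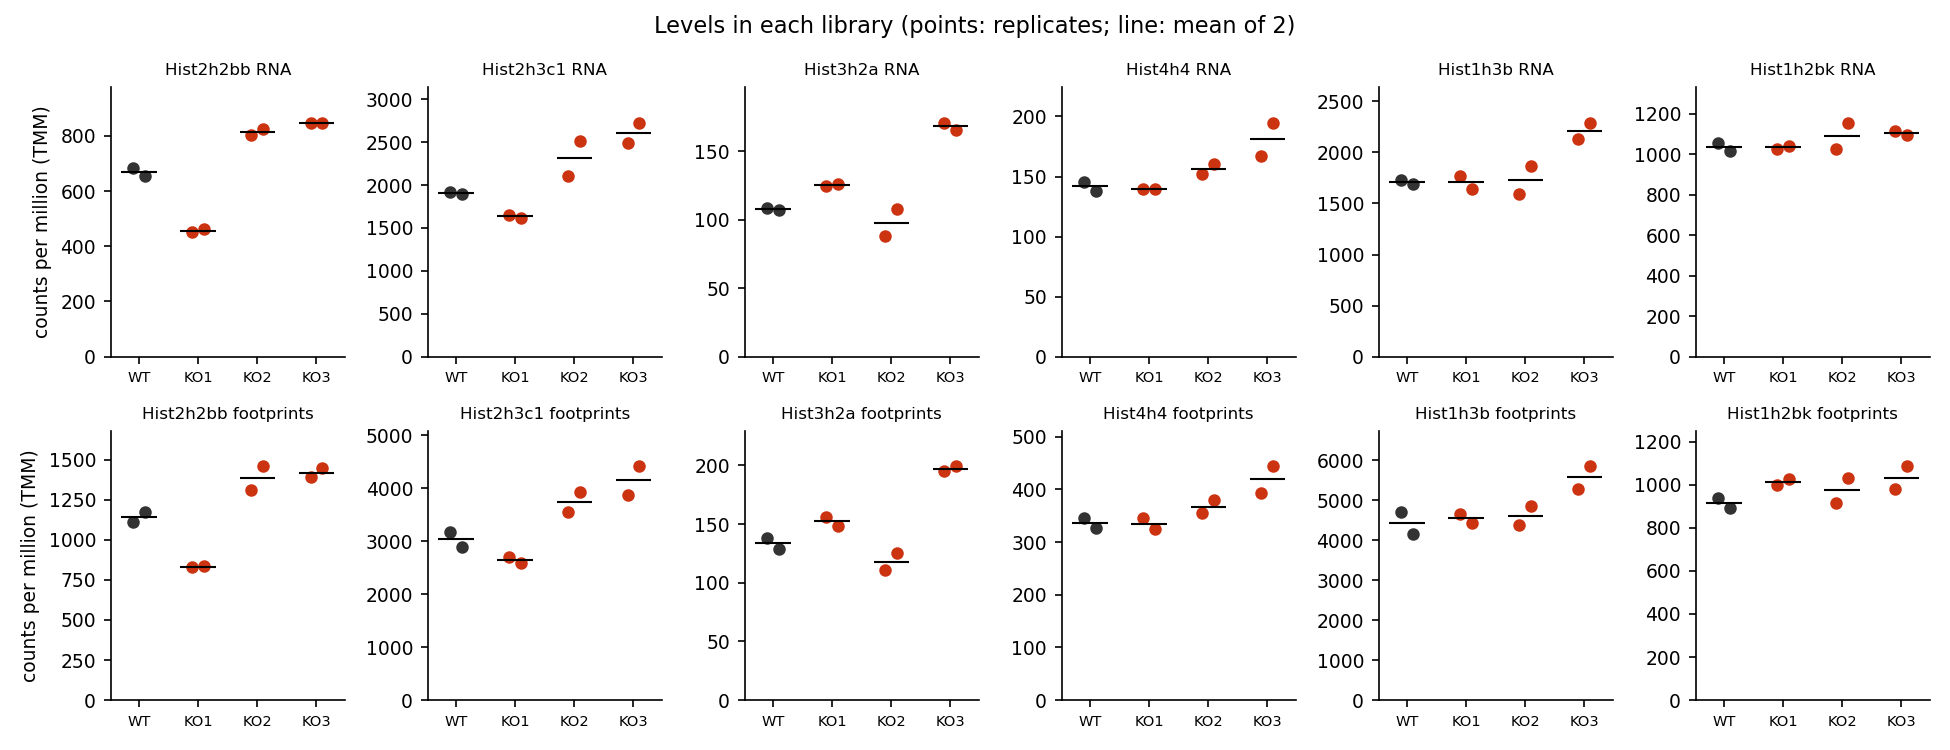
CPM values (TMM-scaled) are shown for 6 core histone genes in each library, RNA-seq above and footprints below, with points for replicates and lines for the mean of 2. Hist2h2bb lies below WT in KO1 and above it in KO2 and KO3 in both assays, and Hist3h2a is highest in KO3.

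The clones were compared with each other by a test that their changes against WT are equal. In RNA 53 of 60 core histone genes differed between the clones, where 74% of all genes tested did. In footprints 43 of 60 differed, against 59.5% of all genes, so the core histones were not rare in this. Hist2h2bb differed in RNA (adjusted p = 3.67e-18) and in footprints (adjusted p = 7.98e-14), and Hist1h2bk in neither (adjusted p = 0.18 and 0.49). The 3 clones share the WT libraries, so their changes are not independent.

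Translation efficiency (TE), the change in footprints beyond that in RNA, was tested as the interaction of line and assay. No core histone gene was called in KO1, KO2 or KO3, where 0.0942%, 0.0173% and 0.104% of all genes were (edgeR). Without adjustment, 10, 1 and 12 of the 60 genes had p under 0.05, where 7.07%, 4.28% and 6.07% of all genes did. DESeq2 also called none. For the core histones the median TE changes of the 3 clones were -0.005, 0.02 and -0.04, against 0.02, 0.0009 and -0.01 for all genes. The classes differed. H2B genes in KO1 had a median of 0.13, with 15 of 18 above 0 and 8 with unadjusted p under 0.05. H2A genes in KO3 had a median of -0.17, with 5 of 17 above 0 and 10 with unadjusted p under 0.05. In the other classes and clones the medians ran from -0.07 to 0.04. Genes of a class share reads, so these counts are not separate observations. Since RNA and footprints of a replicate share a lysate, a lysate block was also fitted. It called 2 genes in KO1, Hist1h2bb (0.29 ± 0.07, adjusted p = 0.00641) and Hist1h2bf (0.28 ± 0.06, adjusted p = 0.00825), and none in KO2 and KO3, where 0.711%, 0.0346% and 0.112% of all genes were called in the 3 clones under that block. Single genes left wide intervals. Hist3h2ba had a TE change of -0.75 ± 0.24 in KO3 (adjusted p = 0.376) and Hist2h2be one of 0.36 in KO3 (adjusted p = 0.878). TE changes differed between the clones for 2 of 60 genes, where 1.03% of all genes did. These were Hist1h2bf (adjusted p = 0.0167) and Hist2h2ab (adjusted p = 0.00116), whose TE changes were 0.47, -0.37 and 0.38 in clone order. With the lysate block 6 of 60 genes differed, and 3.42% of all genes.

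Genes that make, bind or use histones were examined as lists, whose counts stand beside shares of all genes in RNA. In KO1 22.1% of all genes rose and 24.6% fell. The shares were 11.6% and 8.84% for KO2, and 23.1% and 22.3% for KO3. With lists this short, several counts lie near those shares, such as 4 of 15 chaperones that fell in KO1. Slbp, whose protein binds the stem-loop, had 340 and 399 counts in WT RNA-seq. The KO1 libraries held 451 and 370, the KO2 libraries 343 and 418, and the KO3 libraries 421 and 389. These counts are not scaled to library size, so they do not show whether the levels of the lines overlap. Its RNA changes were 0.19 ± 0.10, 0.03 ± 0.11 and 0.006 ± 0.11, none called (adjusted p = 0.141, 0.895 and 0.969). Of 17 factors of histone mRNA transcription, processing and decay, 2 rose and 6 fell in KO1 RNA, 2 rose and 1 fell in KO2, and 3 rose and 1 fell in KO3. Of 15 histone chaperones, which carry new histones to chromatin, 7 rose and 4 fell in KO1, none rose and 2 fell in KO2, whereas KO3 had 7 rises and 2 falls. Of 5 linker H1 genes, 4 rose and 1 fell in KO3 RNA, and 4 rose in footprints, where 14.9% of all genes did. In KO1 1 fell and in KO2 1 rose in RNA. Among 10 variant genes, 5 rose and 2 fell in KO1 RNA, 1 rose and 2 fell in KO2, and 5 rose and 3 fell in KO3.

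Of 39 S phase genes, 18 rose and 8 fell in KO1 RNA, 7 rose and 4 fell in KO2, and 13 rose and 10 fell in KO3, with medians of 0.14, 0.08 and 0.05. Mcm5, a subunit of the replicative helicase, was the 1 gene of these lists whose RNA rose in all 3 clones, by 0.37 ± 0.06, 0.29 ± 0.06 and 0.34 ± 0.06 (adjusted p = 6.69e-07, 0.00114 and 2.03e-06), and none fell in all 3. The part of the cell cycle in the core histone changes was not tested. In bulk libraries more cells in S phase and more histone mRNA per cell cannot be told apart.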

How the data were processed

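RNA-seq and Ribo-seq were measured in WT Hepa1-6 cells and 3 exon 5 KO clones. Per the study's methods and the submitters' processing notes, the authors trimmed reads with fastp 0.21.0, removed noncoding RNA reads, aligned the rest to mm10 with STAR 2.7.0a on GENCODE vM23, and counted them at the A-site position, without the first and last 5 codons. The deposited values are raw counts per transcript (67139 transcripts), not normalized or pooled, with the coding length in codons.

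From these, 1 transcript per gene was kept. Tests used edgeR 4.0.16 in R 4.3.3 (quasi-likelihood, filterByExpr, TMM within each assay, or over the 4 libraries for the footprint-to-RNA ratio), with Benjamini-Hochberg adjustment over all genes tested and a threshold of 0.05. P-values measure the spread between 2 replicates per line. DESeq2 1.42.0, other scalings, filters, blocks and leaving out replicates were alternatives. Depth was 10493029 to 12946815 counts in RNA-seq and 1138944 to 4886757 in Ribo-seq, so genes with few counts, such as Hist2h2be in RNA-seq, have large errors. The SE printed is the absolute log2 value divided by the square root of the F statistic, and may be too small for such genes.

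Sequences came from GRCm38.p6 with GENCODE vM21 positions, which matched all 61 genes. Scripts were tested on simulated data. Genes whose reads also fit other copies are uncertain singly. The members and lists were chosen with earlier results of these data known. The genes named were, per class, the 3 with the most RNA-seq counts, per clone and readout the 2 largest rises and falls among called genes, the 3 highest and lowest ratios in WT, Slbp, and list genes changed in all clones. Other genes, such as Hist4h4, Hist2h4 and Hist1h2bf, were named for their unique sequence or their TE after their values were seen.

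Replicate numbers were not taken as pairs between lines, since differences between replicates correlated by over 0.1 in only some pairs of lines. RNA and footprints of 1 replicate come from the same lysate. Their differences between replicates correlated by 0.106 in WT, 0.184 in KO1, 0.0882 in KO2 and 0.058 in KO3 over 8357 genes.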

Additional observations from a re-analysis of the deposited data

Results flagged for a closer look

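Changes against WT that differ between the clones were flagged, by the test that the 3 changes are equal. Of 60 core histone genes, 53 differed in RNA, 43 in footprints and 2 in TE. The shares over all genes tested were 74%, 59.5% and 1.03%. The genes listed here are those named for a large rise or fall and those flagged in TE. Other named genes also differed, such as Hist1h3b (adjusted p = 5.186e-08 in RNA) and Hist2h2aa1 and Hist2h2aa2 (adjusted p = 0.01823 and 0.01764 in RNA). Among the listed genes, 5 lie in the Hist2 cluster. Of these, Hist2h2bb and the 3 H3 genes fell in KO1 RNA and rose in KO2 and KO3, while Hist2h2ab fell in KO1, rose in KO2 and was at -0.22 in KO3 (adjusted p = 0.305). Hist2h2bb differed with adjusted p = 3.672e-18 in RNA and 7.98e-14 in footprints. For Hist2h3b the adjusted p was 1.57e-12 in RNA and 4.839e-10 in footprints, for Hist2h3c1 6.47e-13 and 1.668e-10, and for Hist2h3c2 4.297e-13 and 3.516e-10. These 3 H3 genes share reads, so they are not 3 separate observations. Hist2h2ab differed in RNA (adjusted p = 9.196e-06) and in TE (adjusted p = 0.001155).

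On chromosome 11, Hist3h2a differed in RNA (adjusted p = 6.443e-11) and footprints (adjusted p = 1.008e-09), and Hist3h2ba in RNA (adjusted p = 0.0002619). Of the listed genes in the Hist1 cluster, Hist1h2bb differed in footprints (adjusted p = 0.03654), Hist1h2bn in RNA (adjusted p = 0.0005436) and Hist1h2bf in TE (adjusted p = 0.01666). The number of genes that differed in footprints and in TE moved when a replicate of a line was left out, as given below. For TE, leaving out a replicate removed both its RNA-seq and its Ribo-seq library.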

How the results depend on the processing

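The rise in KO3 was called under every alternative, for 44 to 53 genes in RNA and 28 to 49 in footprints. Counts of calls in the other clones were less stable. DESeq2 called 8 genes in KO1 RNA, 5 in KO2 RNA and 2 in KO1 footprints. Leaving out 1 library at a time gave 6 to 26 in KO1 RNA, 4 to 33 in KO2 RNA, 3 to 7 in KO1 footprints and 1 to 10 in KO2 footprints. With the replicate block 2 genes were called for TE in KO1, with the lysate block also 2, and 6 then differed between the clones in TE. The replicate block changed no call of the named results in RNA or footprints. Leaving out libraries, the median TE change in KO1 relative to all genes ran from -0.04791 to 0.04124, and the number of genes that differed between clones from 27 to 50 in footprints and 1 to 2 in TE.

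The median ratio in WT relative to all genes was 1.56 without a filter on low counts, 1.072 against genes of like length, 1.677 for mostly unique genes and 1.351 for genes with only unique 100-base windows. With a WT replicate left out it was 1.469 and 1.537, as values with no test, since no residual degrees of freedom remained. The share of RNA-seq counts was 1.998% over all transcripts, 10.89% of TPM and 2.176% with weights for shared windows, and that of footprints 5.071%, 23.44% and 3.146%. The change of Slbp RNA, called nowhere, turned sign: in KO2 to -0.0347 without WT replicate 1 and -0.01144 without KO2 replicate 2 (highest 0.0987), and in KO3 to -0.003093 with at least 10 counts, -0.0577 without WT replicate 1 and -0.02774 without KO3 replicate 1 (highest 0.07541). Of 66 values of named genes, 35 never changed their call or their sign. The cause of these changes was not tested.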

Other observations

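Hist1h1a, a linker histone gene of the Hist1 cluster, had 163 and 149 counts in WT RNA-seq. The KO1 libraries held 189 and 180, the KO2 libraries 326 and 459, and the KO3 libraries 91 and 77. Its RNA rose in KO2 by 1.31 ± 0.14 on the log2 scale (adjusted p = 1.88e-07) and fell in KO3 by 1.02 (SE 0.18, adjusted p = 1.85e-06). Its footprints rose in KO2 by 0.43 (adjusted p = 0.00499) and changed by 0.22 in KO3 (adjusted p = 0.107). It was the 1 gene of the histone lists with a called TE change, 1.25 ± 0.20 in KO3 (adjusted p = 0.000395).

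Hist4h4 on chromosome 6 rose in KO3 by 0.35 in RNA and 0.30 in footprints. Of 523 other genes tested on that chromosome in RNA, 58.3% fell and 6.69% rose, with a median change of -0.32, and the 4 other genes tested within 500000 bases of Hist4h4 all fell. In footprints 44.8% of 476 other genes of chromosome 6 fell, with a median of -0.32. These values were looked up after the results of Hist4h4 were known.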
